A study of Mus musculus with 18 samples.

Results

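Eif5a, Dhps and Dohh were followed as 1 translation factor and the 2 enzymes that modify it. The 3 genes were taken by their symbols from a table of 21003 gene symbols, all 3 were present, and all 3 passed the filter on low counts. Eif5a encodes eIF5A, a factor that binds stalled ribosomes and helps them form difficult peptide bonds and terminate. Its activity depends on hypusine, an amino acid made on 1 lysine of eIF5A and known from no other protein. Dhps, deoxyhypusine synthase, moves an aminobutyl group from the polyamine spermidine onto that lysine, and Dohh, deoxyhypusine hydroxylase, then adds a hydroxyl group. In blood-forming cells this step is one of the known uses of spermidine. Gene-level RNA, which is what was measured here, does not show how much of the protein carried hypusine.

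The cells were long-term haematopoietic stem cells (LT-HSCs), a rare population of the marrow from which every blood lineage can be rebuilt, and the title of the series names polyamines. Each of 18 RNA-seq libraries came from 100 sorted cells of c57 B6 WT genotype, given in the growth protocol as B6.SJL mice aged 8 to 12 weeks, and the design text names 6 individual mice. There were 3 groups of 6 libraries. One had spent 48 h in culture at pH 6.9, another 48 h in culture at pH 7.4, and the control cells were taken fresh at pH 7.4 without culture. Both cultures used IMDM with 10% FBS and the cytokines mSCF, GCSF and mTPO at 50 ng/ml, at 37 °C with 5% CO2 and 3% O2. The comparisons ask what the acidic medium and the culture itself did to the cells' RNA.

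Libraries of 1 group did not form 1 cloud, and this touches every result below. In each group the odd-numbered mice carried 1 first sequencing index and the even-numbered mice another, with 705 and 706 at pH 6.9, 707 and 708 at pH 7.4, and 701 and 702 in fresh cells. Within the odd or the even mice, pH and first index cannot be told apart. The libraries pH 6.9 replicate 3, fresh replicate 1 and fresh replicate 4 stood apart, with 8925, 3035 and 9408 genes detected, and fresh replicate 1 held 6311 counts in all. The other 15 libraries had 11225 to 12792 genes detected and totals of 1640817 to 7508120 counts. The fits by index set used those 15 libraries, and for the Eif5a calls the values with all 18 are given as well. These fits were set up after the split had been seen in the same libraries. LT-HSC markers were present in all 15, with 8 or 9 of 9 genes detected and a summed level of 1041 to 1561 CPM (counts scaled to a total of 1e+06) at pH 6.9, 368 to 1477 CPM at pH 7.4 and 546 to 795 CPM in fresh cells. Of 3 T cell markers 2 were in the count table, and these summed to at most 1.06 CPM. Markers of other lineages were also present in the 15: the 4 granulocyte progenitor markers summed to 28.5 to 4965 CPM, the 3 megakaryocyte markers to 29.3 to 896 CPM, and the 3 monocyte and macrophage markers to 136 to 445 CPM. The 3 erythroid markers summed to 0 to 163 CPM, and the 3 B cell markers to at most 7.85 CPM.

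The mouse genome holds another gene for the factor, Eif5a2, and both carry the codon of the lysine that becomes hypusine. The coding sequence around that codon is shown because reads of the 2 genes can only be assigned where they differ, and because it is the site on which Dhps and Dohh act. Capitals mark the lysine codon, codon 50 in both genes, which lies in exon 3 of 7 of Eif5a at chr11:69919166-69919168 on the minus strand and in exon 2 of 5 of Eif5a2 at chr3:28782199-28782201 on the plus strand (GRCm38).
Eif5a: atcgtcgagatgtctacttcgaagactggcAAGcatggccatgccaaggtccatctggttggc
Eif5a2: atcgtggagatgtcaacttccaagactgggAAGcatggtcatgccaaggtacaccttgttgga
These windows of 63 bases differ at 9 positions. Over the whole coding sequence the 2 genes were 72.7% identical in an alignment of 462 bases, and their longest run without a difference was 14 bases, shorter than a read of 75 bp.

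Eif5a lies on chromosome 11 (69916714 to 69921958, minus strand), Dhps on chromosome 8 (85071757 to 85075162, plus strand) and Dohh on chromosome 10 (81384428 to 81388352, plus strand). A few properties of these loci bear on the counts, since the libraries kept no strand information. For Eif5a, 3 processed pseudogenes match its transcript over at least 200 bases at 90% identity or more, and none of them is in the count table, so their reads, if any, could have been counted as Eif5a. Exons of Dohh share 972 of 2048 bases (47.5%) with the same-strand gene Gm48551, which is also not in the table, so the Dohh value is uncertain to that extent. Dhps shares 128 exon bases (5.51%) with Wdr83 on the opposite strand, at 85075035 to 85075162, and reads there cannot be told apart by strand.

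The promoter windows of the 3 genes, 300 bases that end shortly after a RefSeq start (GRCm38.p6), are shown as a description of the loci. Capitals mark CACGTG, the E-box bound by MYC and related factors, which reads the same on both strands.
Eif5a, chr11:69921337-69921636, minus strand: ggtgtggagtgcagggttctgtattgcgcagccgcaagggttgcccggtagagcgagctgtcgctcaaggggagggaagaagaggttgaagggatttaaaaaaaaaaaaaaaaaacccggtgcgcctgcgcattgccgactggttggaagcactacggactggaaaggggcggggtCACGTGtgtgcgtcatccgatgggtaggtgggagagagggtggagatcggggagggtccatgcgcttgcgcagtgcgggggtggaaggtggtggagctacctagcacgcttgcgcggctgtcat
Dhps, chr8:85071507-85071806, plus strand: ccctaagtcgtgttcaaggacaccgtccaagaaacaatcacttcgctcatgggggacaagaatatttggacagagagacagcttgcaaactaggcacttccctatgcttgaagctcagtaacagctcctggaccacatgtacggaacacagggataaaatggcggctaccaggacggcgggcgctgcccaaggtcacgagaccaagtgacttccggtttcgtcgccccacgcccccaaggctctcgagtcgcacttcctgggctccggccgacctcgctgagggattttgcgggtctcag
Dohh, chr10:81384184-81384483, plus strand: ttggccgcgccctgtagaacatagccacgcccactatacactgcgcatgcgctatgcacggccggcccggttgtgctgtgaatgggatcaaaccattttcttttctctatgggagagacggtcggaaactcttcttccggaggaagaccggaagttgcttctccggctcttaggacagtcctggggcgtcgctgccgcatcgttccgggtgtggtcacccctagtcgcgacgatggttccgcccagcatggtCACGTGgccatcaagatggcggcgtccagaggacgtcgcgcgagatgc
The Eif5a window holds the motif 74 bases before the start, the Dohh window holds it just past the start, and the Dhps window does not hold these letters. Eif5a has 6 partly overlapping windows from alternative starts, of which 3 hold the motif. The window shown was picked from those 3 because it holds the motif, while Dhps and Dohh have 1 window each. The window of Eif5a2 holds the motif 2 times, and that of Odc1, a gene named below, does not hold it. Of all 32817 mouse windows, 2346 (7.15%) hold the motif, and 2184 of 26994 genes (8.09%) have at least 1 window that holds it. A match describes the letters and is not evidence of a bound site.

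Eif5a RNA was among the most abundant in these cells. Averaged over the 15 libraries it was 3261 CPM, rank 8 of 10104 genes, against 37.7 CPM for Dhps (rank 4966) and 50.0 CPM for Dohh (rank 4144). Divided by the median length of the principal transcripts, Eif5a had 2536 ± 802 CPM per kilobase, Dhps had 28.3 ± 6.97 and Dohh had 34.6 ± 8.55 (SD, n = 15). On that scale Eif5a RNA was 89.7 times as abundant as Dhps RNA and 73.2 times as abundant as Dohh RNA, and the enzymes were within 1.23-fold of each other. In the 15 libraries Eif5a rested on 4073 to 33590 counts, Dhps on 57 to 308 and Dohh on 62 to 446. Counting error was therefore small for Eif5a and large for the enzymes: in pH 6.9 replicate 1 the exact 95% Poisson interval was 4122 to 4322 CPM for Eif5a, 26.6 to 45.6 CPM for Dhps and 29.3 to 49.0 CPM for Dohh. Each library pools 100 cells, so fewer cells of a type and less RNA per cell cannot be told apart.

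Taken by group, Eif5a did not differ between acidic and neutral culture beyond the spread between libraries. In replicates 1 to 6, Eif5a had 4221, 2363, 226, 2056, 4605 and 1755 CPM at pH 6.9. At pH 7.4 the same mice had 2168, 3878, 2194, 4239, 2440 and 3970 CPM. Fresh cells had 1523, 4145, 2621, 559, 3939 and 4328 CPM. High and low libraries occurred in every group, and the groups overlapped. The means were 2538 ± 1633 CPM at pH 6.9, 3148 ± 977 CPM at pH 7.4 and 2852 ± 1556 CPM in fresh cells (SD, n = 6 each), where fresh replicate 1 rests on 19 counts. Over the 15 libraries they were 3000 ± 1315 CPM at pH 6.9 (n = 5), 3148 ± 977 CPM at pH 7.4 (n = 6) and 3758 ± 775 CPM in fresh cells (n = 4). The log2 fold change was −0.31 ± 0.52 (SE) for pH 6.9 against pH 7.4, 0.13 ± 0.52 for pH 7.4 against fresh and −0.18 ± 0.52 for pH 6.9 against fresh, with edgeR adjusted p of 0.997, 0.975 and 1. Over the 15 libraries these log2 fold changes were −0.08, −0.25 and −0.33, so that the sign of pH 7.4 against fresh turned. The 95% interval of the pH difference over 18 libraries ran from −1.38 to 0.76 and so included a fall of the size found below in even mice and not a rise of the size found in odd mice. In each of these 3 comparisons edgeR called 0 of 10104 genes (0% in each), with 254, 381 and 229 genes at an unadjusted p under 0.05, limma-voom called 0 in each, and DESeq2 called 4 genes for pH 6.9 against pH 7.4 and 0 in the others.

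Within each pH the libraries fell by mouse parity, in opposite directions. At pH 6.9 the odd mice had 4413 ± 271 CPM of Eif5a (SD, n = 2) and the even mice 2058 ± 304 CPM (n = 3). At pH 7.4 the odd mice had 2267 ± 150 CPM and the even mice 4029 ± 188 CPM (n = 3 each). Fresh cells had 3280 ± 932 CPM in odd mice and 4236 ± 129 CPM in even mice (n = 2 each). From high to low, the sets were thus pH 6.9 odd, fresh even, pH 7.4 even, fresh odd, pH 7.4 odd and pH 6.9 even. The first 3 overlapped their neighbours in this order, as did the last 2, and the fresh odd set spanned the gap with 2621 and 3939 CPM.

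**Figure D1:**
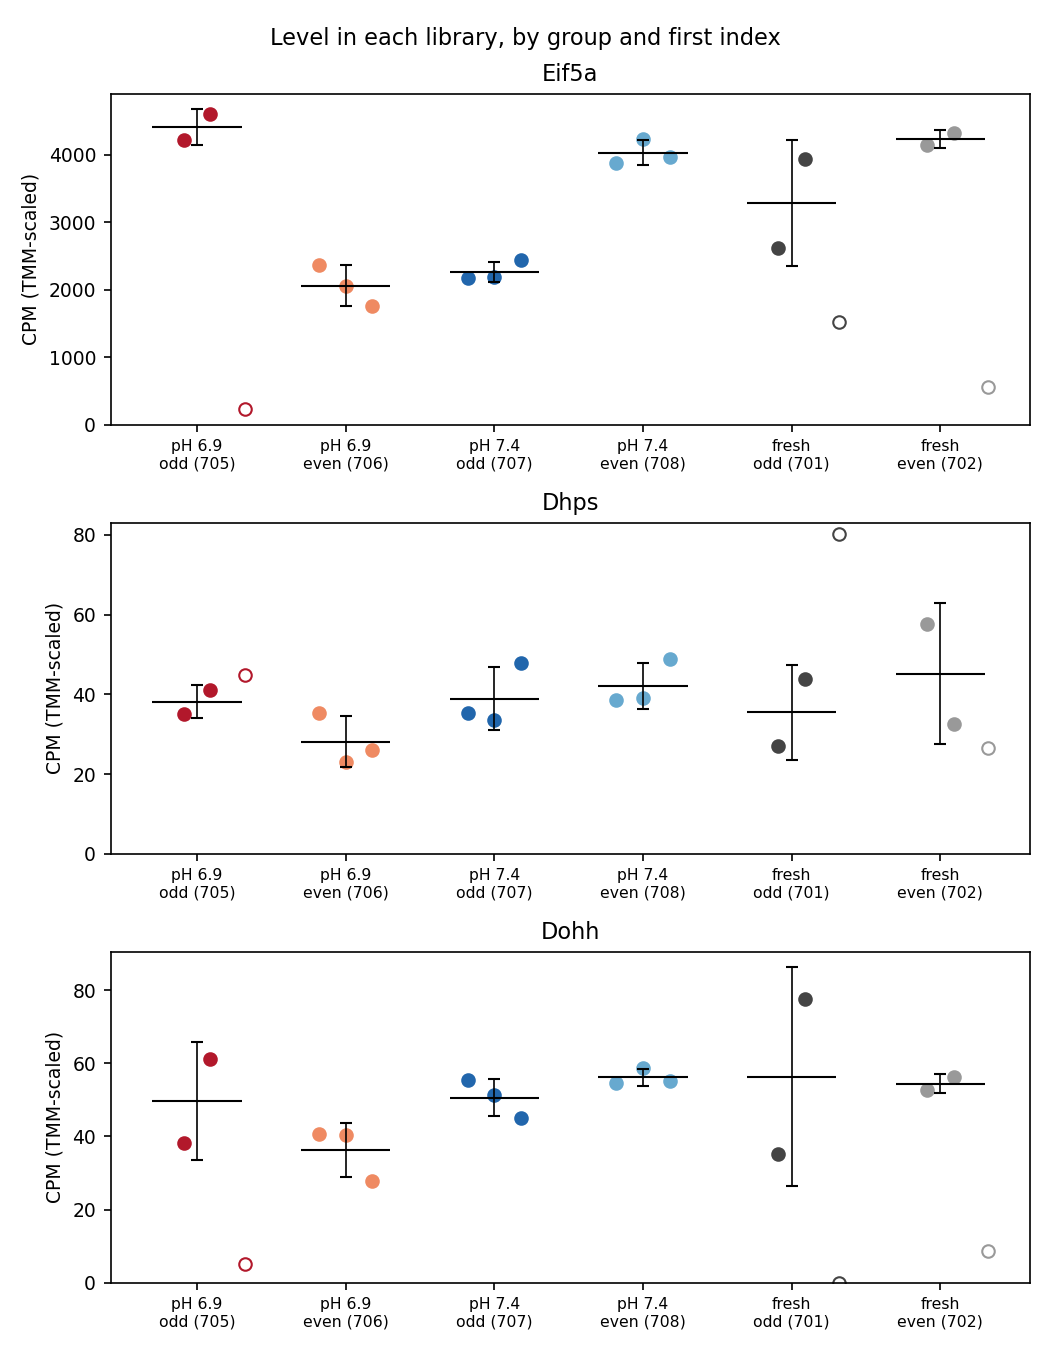
Level of Eif5a, Dhps and Dohh (CPM, TMM-scaled, linear axis from 0) in each library, by group and mouse parity with the first index in brackets. Filled points are the 15 libraries, open points the 3 libraries left out, and bars the mean and SD of the filled points. Eif5a sits at 4221 to 4605 CPM in pH 6.9 odd mice and at 1755 to 2363 CPM in pH 6.9 even mice, and the pH 7.4 sets lie the other way round.

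Eif5a was therefore higher in the pH 6.9 than in the pH 7.4 libraries of odd mice, and lower in those of even mice. The labels give no processing days, and an effect of pH, of the first index or of libraries exchanged between sets cannot be told apart here. In odd mice the values were 4221 and 4605 CPM at pH 6.9, against 2168, 2194 and 2440 CPM at pH 7.4. All pH 6.9 libraries were above all pH 7.4 libraries there, and the fold was 1.94 (log2 0.96 ± 0.18, 95% interval 0.59 to 1.33, edgeR adjusted p = 0.00314). In even mice the values were 2363, 2056 and 1755 CPM at pH 6.9, against 3878, 4239 and 3970 CPM at pH 7.4. Here all pH 6.9 libraries were below, with a log2 fold change of −0.98 ± 0.16 (−1.32 to −0.65, adjusted p = 0.00208). The change in odd mice minus the change in even mice was 1.94 ± 0.24 (adjusted p = 3.52e-05), and the mean of both was −0.01 ± 0.12 (−0.26 to 0.24, adjusted p = 0.978).

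Many other genes also passed within the sets of mice, so the background is high. edgeR called 11.1% of 10659 genes in odd mice (5.07% up and 6.01% down), 6.75% in even mice (2.67% up and 4.07% down), 18.1% for the difference between the sets (9.09% up and 8.96% down) and 0.263% for their mean. Libraries did not overlap for 38.5% of all genes in odd mice and 32% in even mice. With all 18 libraries, including the 3 that stood apart, the Eif5a values were 0.41 in odd mice (adjusted p = 0.811), −0.97 in even mice (adjusted p = 1) and 1.38 for the difference (adjusted p = 0.547). The calls on Eif5a thus hold for the 15 libraries and not for the 18. Leaving out any 1 of the libraries compared (5 in odd mice, 6 in even mice and 11 for the difference) kept all 3 Eif5a calls. The adjusted p was at most 0.029, 0.0191 and 0.000483. With the mouse as a block the odd comparison called 775 genes in place of 1181.

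Against fresh cells, Eif5a at pH 6.9 also differed by parity. In even mice it had 2363, 2056 and 1755 CPM at pH 6.9, against 4145 and 4328 CPM in fresh cells, a log2 fold change of −1.05 ± 0.18 (adjusted p = 0.00148, 10.9% of genes called, 6.15% down). In odd mice it had 4221 and 4605 CPM at pH 6.9, against 2621 and 3939 CPM in fresh cells, and the change of 0.42 ± 0.20 did not pass (adjusted p = 0.354, 0.6% of genes called). The difference between odd and even mice was 1.47 ± 0.26 (adjusted p = 0.00176, 12.7% of genes called). With all 18 libraries the even value was −0.55 (adjusted p = 0.74) and the difference 0.68 (adjusted p = 0.727).

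At pH 7.4 against fresh cells Eif5a passed no test. In odd mice the log2 fold change was −0.54 ± 0.18 (95% interval −0.91 to −0.17, adjusted p = 0.257, 0.113% of genes called). In even mice it was −0.07 ± 0.18 (−0.44 to 0.31, adjusted p = 0.918, 0.103% of genes called). These comparisons share their fresh or pH 7.4 libraries with those above and are not separate evidence.

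Comparing odd with even mice inside a group gives the same split without any difference in pH. Eif5a was 2.15-fold higher in odd than in even mice at pH 6.9 (log2 1.10 ± 0.18, adjusted p = 0.000788, 14.4% of genes called). At pH 7.4 the log2 fold change of odd against even mice was −0.84 ± 0.16 (adjusted p = 0.00839, 3.33% of genes called). The mouse as a block cannot serve here, since no mouse is both odd and even. In fresh cells the difference was −0.37 ± 0.19 and did not pass (adjusted p = 0.677, 0.0563% of genes called). With all 18 libraries the pH 6.9 value was 0.55 and the pH 7.4 value −0.83, and neither passed.

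Values that moved with the Eif5a level were examined beside it. Total counts did not: the pH 6.9 odd libraries, both high in Eif5a, had 1689227 and 7508120 counts. Granulocyte progenitor markers (Mpo, Elane, Ctsg and Prtn3) summed to 39.6 to 68.3 CPM in the pH 7.4 odd libraries with 2 or 3 of 4 detected, and to 1583 to 4695 CPM in the pH 7.4 even libraries with 4 of 4 detected, so at pH 7.4 they were high where Eif5a was high. At pH 6.9 they summed to 162 and 163 CPM in odd and 28.5 to 43.4 CPM in even mice, so there too they were higher where Eif5a was high. Eif5a itself was as high in pH 6.9 odd as in pH 7.4 even mice. In fresh cells the granulocyte progenitor markers summed to 69.3 and 4965 CPM in odd and 97.6 and 254 CPM in even mice. The LT-HSC markers summed to 1041 to 1394 CPM in the pH 6.9 odd and 1107 to 1561 CPM in the pH 6.9 even libraries. At pH 7.4 the LT-HSC sums were 848.5 to 1477 CPM in odd and 368 to 612 CPM in even mice, so there they were higher where Eif5a was low. In fresh cells these sums were 545.7 to 794.6 CPM in odd and 641.1 to 715.4 CPM in even mice. The part of other cell types in the Eif5a result was not tested.

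**Figure D2:**
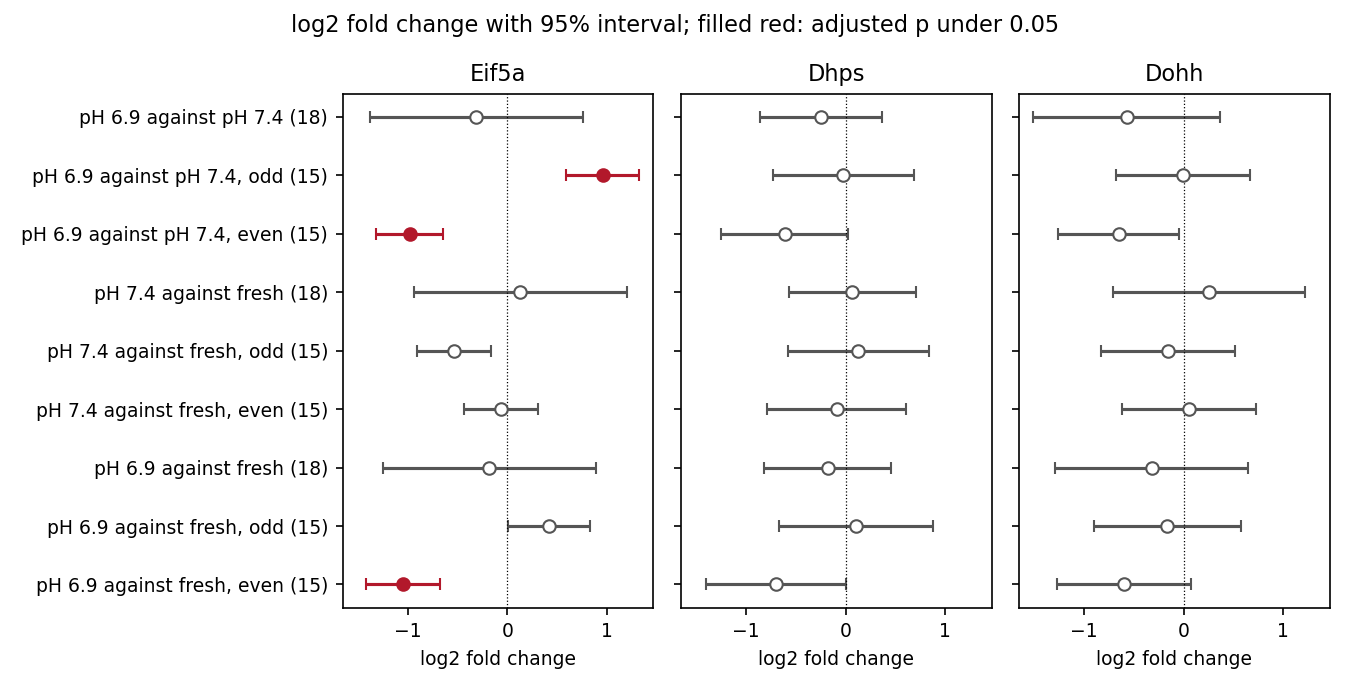
log2 fold change (horizontal axis) with its 95% interval for Eif5a, Dhps and Dohh in the 3 group comparisons over 18 libraries and in the comparisons within odd or even mice over 15 libraries. Filled red points have an edgeR adjusted p under 0.05: Eif5a at 0.96 and −0.98 for pH 6.9 against pH 7.4 in odd and even mice and at −1.05 for pH 6.9 against fresh in even mice, and no interval of Dhps or Dohh is red.

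Dhps RNA, for the enzyme that uses spermidine, passed no test in any of the 15 comparisons, with edgeR, DESeq2 or limma-voom, and had an unadjusted edgeR p under 0.05 in 0 of them. In replicates 1 to 6 it had 35.2, 35.4, 44.7, 23.05, 41.1 and 25.97 CPM at pH 6.9. At pH 7.4 it had 35.3, 38.6, 33.6, 39.0, 47.9 and 48.8 CPM. Fresh cells had 57.8, 27.0, 26.5, 43.9 and 32.7 CPM in replicates 2 to 6, while fresh replicate 1 had 1 count, below the limit of 240.5 CPM that 3 counts give in that library. The lowest 2 values among the cultures were even mice at pH 6.9, but the groups overlapped.

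The Dhps means were 34.2 ± 8.41 CPM at pH 6.9, 40.6 ± 6.40 CPM at pH 7.4 and 44.7 ± 21.1 CPM in fresh cells (SD, n = 6 each), where the fresh mean includes the single count of replicate 1. Over the 15 libraries they were 32.1 ± 7.44 CPM at pH 6.9 (n = 5), 40.6 ± 6.40 CPM at pH 7.4 (n = 6) and 40.3 ± 13.6 CPM in fresh cells (n = 4). The log2 fold change was −0.25 ± 0.29 for pH 6.9 against pH 7.4 (95% interval −0.86 to 0.36), 0.07 ± 0.31 for pH 7.4 against fresh and −0.18 ± 0.31 for pH 6.9 against fresh, with edgeR adjusted p of 0.997, 0.980 and 1. In odd mice Dhps had 35.2 and 41.1 CPM at pH 6.9, against 35.3, 33.6 and 47.9 CPM at pH 7.4. Its change there was −0.02 ± 0.34 (adjusted p = 0.976), with an interval of −0.73 to 0.69 that overlapped the interval of Eif5a. Whether Dhps and Eif5a differed in this change was not tested. In even mice Dhps had 35.4, 23.05 and 25.97 CPM at pH 6.9, against 38.6, 39.0 and 48.8 CPM at pH 7.4, and the change of −0.61 ± 0.30 (−1.25 to 0.02) did not pass (adjusted p = 0.26). The even libraries did not overlap, as was so for 32% of all genes. The difference between odd and even mice was 0.59 ± 0.45 (adjusted p = 0.406).

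In the libraries that stood apart, Dhps did not follow Eif5a closely. In pH 6.9 replicate 3, Dhps had 44.7 CPM, the highest value of its group, while Eif5a had 226 CPM, the lowest of its group. In fresh replicate 4, Dhps had 26.5 CPM and Eif5a 559 CPM, each the lowest of its group, although Dhps was close to the 27.0 CPM of fresh replicate 3. Wdr83, which overlaps the end of Dhps on the other strand, had 100.9 and 86.3 CPM in the same libraries, against 29.2 to 46.3 CPM in the other pH 6.9 libraries and 25.8 to 46.6 CPM in fresh replicates 2, 3, 5 and 6. Which of the 2 genes the reads in the shared bases came from was not tested.

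Dohh RNA, for the enzyme that completes hypusine, likewise passed no test in the 15 comparisons with any of these tools, and had an unadjusted edgeR p under 0.05 in 1 of them. In replicates 1 to 6 it had 38.3, 40.6, 5.26, 40.4, 61.1 and 27.9 CPM at pH 6.9. At pH 7.4 it had 55.3, 54.6, 51.4, 58.8, 45.1 and 55.2 CPM, the narrowest spread relative to the mean of any group for the 3 genes. Fresh cells had 52.7, 35.1, 8.63, 77.5 and 56.2 CPM in replicates 2 to 6, and fresh replicate 1 had 0 counts, which allows up to 240.5 CPM. Of the pH 6.9 libraries, 5 of 6 were below all pH 7.4 libraries and replicate 5 was above them.

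The Dohh means were 35.6 ± 18.4 CPM at pH 6.9, 53.4 ± 4.69 CPM at pH 7.4 and 38.4 ± 29.7 CPM in fresh cells (SD, n = 6 each). Over the 15 libraries they were 41.7 ± 12.1 CPM at pH 6.9 (n = 5), 53.4 ± 4.69 CPM at pH 7.4 (n = 6) and 55.4 ± 17.39 CPM in fresh cells (n = 4). For pH 6.9 against pH 7.4 the log2 fold change was −0.57 ± 0.45 (95% interval −1.51 to 0.37, adjusted p = 0.997). For pH 7.4 against fresh it was 0.25 ± 0.47, and −0.05 over the 15 libraries, and for pH 6.9 against fresh it was −0.32 ± 0.47. In even mice Dohh had 40.6, 40.4 and 27.9 CPM at pH 6.9, against 54.6, 58.8 and 55.2 CPM at pH 7.4. The libraries did not overlap, as was so for 32% of all genes. The change of −0.65 ± 0.29 (−1.26 to −0.04) failed the adjustment over all genes (adjusted p = 0.199). In odd mice it had 38.3 and 61.1 CPM at pH 6.9, against 55.3, 51.4 and 45.1 CPM at pH 7.4, a change of −0.01 ± 0.32 (adjusted p = 0.992). The difference between odd and even mice was 0.65 ± 0.43 (adjusted p = 0.335).

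Eif5a counts per enzyme count did not differ between the 3 groups beyond the spread between libraries. Over the 15 libraries the log2 ratio of Dhps to Eif5a averaged −6.46 ± 0.40 at pH 6.9 (SD, n = 5), −6.23 ± 0.43 at pH 7.4 (n = 6) and −6.57 ± 0.36 in fresh cells (n = 4). That of Dohh to Eif5a averaged −6.10 ± 0.43 at pH 6.9, −5.82 ± 0.40 at pH 7.4 and −6.11 ± 0.30 in fresh cells. The groups overlapped, and none of 9 exact two-sided permutation tests of a ratio between groups passed, with a smallest p of 0.1905 (adjusted p = 0.8377), where these group sizes could have given p down to between 0.004329 and 0.01587.

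By set, the ratios of the enzymes to Eif5a split as Eif5a did. Since Eif5a is part of both ratios, this is not a separate result. At pH 6.9 there were 115 Eif5a counts per Dhps count in odd mice and 73.4 in even mice. At pH 7.4 there were 58.7 in odd mice and 95.8 in even mice, and in fresh cells 93.0 in odd and 97.2 in even mice. Neither pH 6.9 odd library overlapped the pH 6.9 even libraries in this ratio, nor did the pH 7.4 sets overlap. Eif5a counts per Dohh count were 90.8 and 56.8 in odd and even mice at pH 6.9, 44.8 and 71.6 at pH 7.4, and 61.4 and 77.6 in fresh cells. The differences between sets in the ratios were not tested.

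The ratio of the 2 enzymes to each other showed no such split. The log2 ratio of Dohh to Dhps was 0.36 ± 0.31 at pH 6.9 (SD, n = 5), 0.41 ± 0.30 at pH 7.4 (n = 6) and 0.46 ± 0.44 in fresh cells (n = 4), with adjusted p of 0.921 for all 3 exact permutation comparisons. It averaged 0.35 and 0.37 in odd and even mice at pH 6.9, 0.39 and 0.42 at pH 7.4, and 0.60 and 0.32 in fresh cells. In the 3 libraries that stood apart it was −2.99 in pH 6.9 replicate 3, and −1.58 in fresh replicate 1 and in fresh replicate 4.

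**Figure D3:**
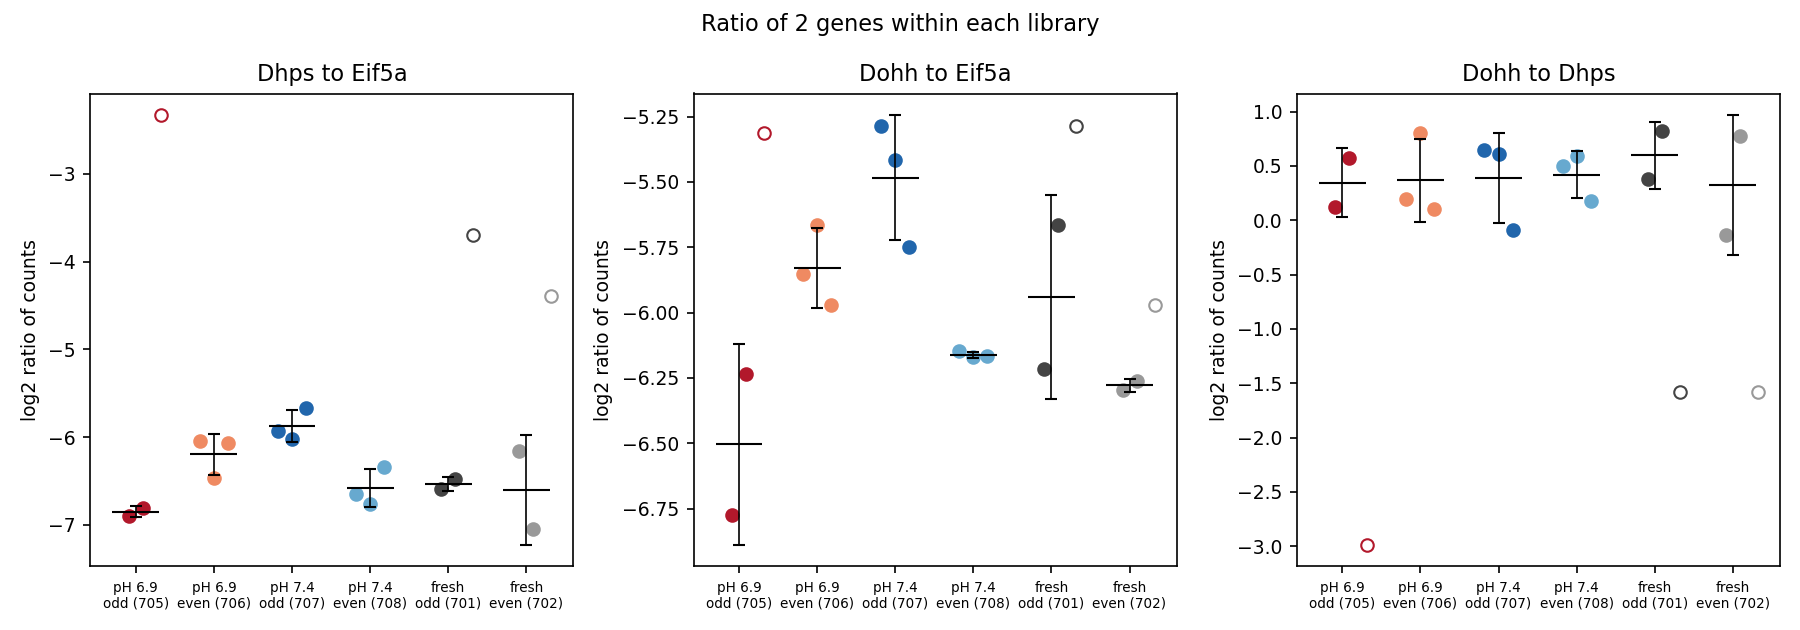
log2 ratio of counts (plus 0.5) of Dhps to Eif5a, Dohh to Eif5a and Dohh to Dhps in each library, by group and mouse parity with the first index in brackets. Filled points are the 15 libraries, open points the 3 left out, and bars the mean and SD of the filled points. The ratio of Dhps to Eif5a averages −6.85 in pH 6.9 odd and −6.20 in pH 6.9 even mice, and −5.87 in pH 7.4 odd and −6.58 in pH 7.4 even mice, while that of Dohh to Dhps averages 0.35 to 0.42 in these 4 sets.

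Eif5a2, the gene for the second form of the factor, was a minor part of the RNA. Per kilobase it reached 3.53 ± 2.19 CPM (SD, n = 15), and Eif5a was 719 times as abundant on that scale. At pH 6.9 it had 7.40, 9.86, 0, 22.2, 5.48 and 22.5 CPM in replicates 1 to 6. At pH 7.4 it had 43.9, 21.4, 17.5, 16.6, 6.34 and 20.5 CPM. Fresh cells had 8.93, 37.0, 3.45, 15.9 and 10.7 CPM in replicates 2 to 6 and 0 counts in replicate 1. The pH 6.9 odd libraries, the set with the highest mean of Eif5a, were the lowest in Eif5a2 among the 15 together with pH 7.4 replicate 5. In odd mice the change at pH 6.9 against pH 7.4 was −1.83 ± 0.66 and missed the threshold (adjusted p = 0.0802), and in even mice it was −0.09 ± 0.52 (adjusted p = 0.952). For pH 6.9 against fresh, the change in odd mice minus that in even mice was −2.99 ± 0.93 (adjusted p = 0.0408), on sets of 2 or 3 libraries with 12 to 159 counts each.

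Across the 15 libraries the 3 genes followed each other only in part. Pearson's r of log2 CPM was 0.591 for Eif5a and Dhps, 0.625 for Eif5a and Dohh and 0.610 for Dhps and Dohh, as a description over libraries that share groups and index sets. The genes likest to Eif5a among 8224 were Ruvbl1 (r = 0.988), an ATPase of chromatin and chaperone complexes, C1qbp (0.983), a mitochondrial matrix protein, Mrto4 (0.981), a factor of large ribosomal subunit assembly, Eif1ax (0.979), the initiation factor eIF1A, and Mrpl12 (0.979), a mitochondrial ribosomal protein. C1qbp, for one, had 642 ± 40.7 CPM in odd and 225 ± 39.0 CPM in even mice at pH 6.9, and 290 ± 24.7 CPM in odd and 534 ± 46.2 CPM in even mice at pH 7.4. The promoter windows of these 5 genes do not hold CACGTG.

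The enzymes had looser company. Likest to Dhps were Etfb (r = 0.843), Gins4, Dus1l, Metap2 and Tor1a (0.823), and likest to Dohh were Lman2 (0.838), Ppan, Manf, Idh2 and Wdr46 (0.819). Etfb encodes a subunit of the electron transfer flavoprotein, Metap2 a methionine aminopeptidase and Ppan a ribosome assembly factor. No gene was among the 5 likest of more than 1 of the 3 genes.

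**Figure D4:**
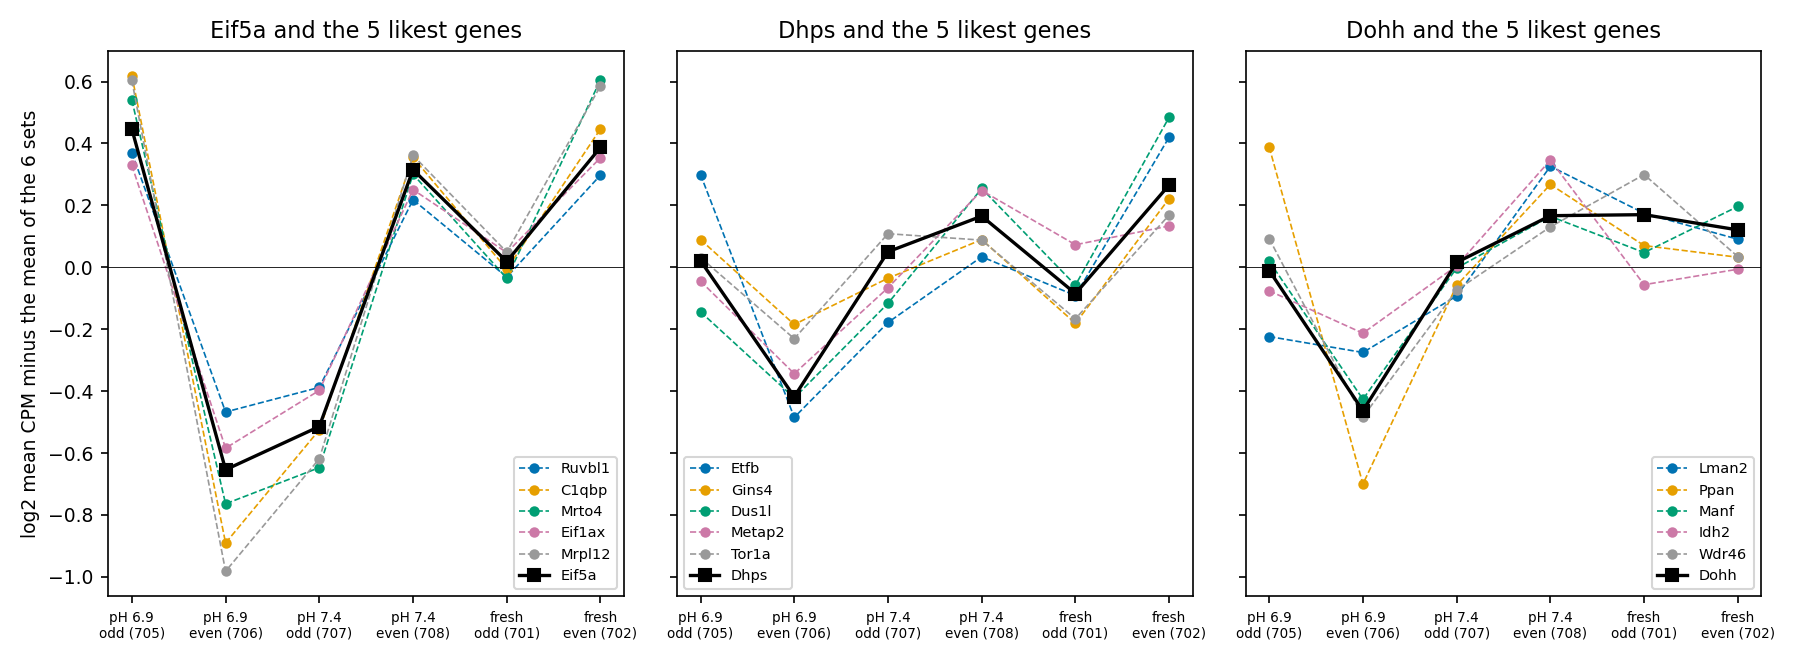
log2 mean CPM of each set minus the mean of the 6 sets, for Eif5a, Dhps and Dohh (black squares) and for the 5 genes likest to each over the 15 libraries (coloured points), by group and mouse parity. Lines only join the points of a gene. The genes likest to Eif5a follow its high level in pH 6.9 odd mice and its low level in pH 6.9 even and pH 7.4 odd mice, and the panels of Dhps and Dohh scatter more around the black line.

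The list results that follow hold for the 15 libraries: with all 18, edgeR called 65 genes in odd and 0 in even mice, and 0 of the 71 list genes in either. For the difference between the sets Odc1, Srm, Eef1d, Eef1g and Eif3g still passed with all 18.

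Genes of polyamine synthesis and its control passed with Eif5a in part. The list held Odc1, Srm, Amd1, Sms, Azin1 and Oaz1, which do not all act to raise spermidine. Of 6 such genes, Odc1 and Srm rose at pH 6.9 in odd mice and both fell in even mice, and the other 4 passed neither test, where 5.07% of all genes were up in odd mice and 4.07% down in even mice. Srm, spermidine synthase, had 746 ± 29.5 CPM at pH 6.9 against 280 ± 26.6 CPM at pH 7.4 in odd mice, and 222 ± 53.6 CPM against 714 ± 94.9 CPM in even mice (adjusted p = 0.00161 and 0.000495). Odc1, ornithine decarboxylase, had 577 ± 80.1 CPM against 327 ± 32.6 CPM in odd mice, and 271 ± 26.4 CPM against 443 ± 9.07 CPM in even mice (adjusted p = 0.00709 and 0.011). Oaz1, the antizyme that sends ornithine decarboxylase for degradation, had log2 fold changes of −0.02 ± 0.20 in odd and −0.23 ± 0.17 in even mice. The median of the 6 was 0.19 in odd mice, against −0.08 over all genes, and −0.62 in even mice, against 0.04 over all genes.

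Of 5 genes for the acetylation and export of eIF5A, different ones passed in the 2 sets of mice. In odd mice Sirt2, a deacetylase of eIF5A, fell to 37.7 ± 1.70 CPM at pH 6.9, against 69.3 ± 6.74 CPM at pH 7.4 (adjusted p = 0.039). In even mice Sat1, the spermidine and spermine acetyltransferase, rose to 203 ± 36.2 CPM at pH 6.9, against 94.5 ± 11.2 CPM at pH 7.4 (adjusted p = 0.0309). There Xpo4, the exportin that carries eIF5A out of the nucleus, fell to 13.8 ± 2.92 CPM at pH 6.9, against 37.5 ± 5.98 CPM at pH 7.4 (adjusted p = 0.0204). The difference between odd and even mice passed for all 3, with 1 gene up (Xpo4, 2.24 ± 0.53) and 2 down (Sat1, −1.85 ± 0.44, and Sirt2, −1.28 ± 0.35), where 18.1% of all genes passed for the difference, 11.1% in odd mice and 6.75% in even mice.

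Initiation factors were the longest list, with 34 genes. In odd mice 12 of 34 rose at pH 6.9 and 0 fell, and in even mice 0 rose and 15 fell, against 5.07% of all genes up and 4.07% down. The medians were 0.47 in odd and −0.49 in even mice, against −0.08 and 0.04 over all genes. For the difference between the sets 18 of 34 passed, all with a higher change in odd than in even mice. Over all genes 18.1% passed for the difference, and 9.09% with a higher change in odd mice. Eif4a1, the helicase that opens mRNA for the small subunit, had 2317 ± 78.7 CPM at pH 6.9 against 1108 ± 95.5 CPM at pH 7.4 in odd mice, and 1159 ± 150 CPM against 1957 ± 108 CPM in even mice (adjusted p = 0.00102 and 0.0055). Eif3g, a subunit of eIF3, had log2 fold changes of 1.24 ± 0.23 in odd and −0.87 ± 0.21 in even mice, and Eif1ax had 0.73 ± 0.18 and −0.85 ± 0.17. Eif1 rose in odd mice (0.59 ± 0.16, adjusted p = 0.0241) and had 0.05 ± 0.14 in even mice (adjusted p = 0.895).

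Elongation and termination factors, the class to which eIF5A belongs by function, were more mixed. In odd mice 3 of 13 rose (Eef1b2, Eef1d and Eef1g, subunits of the complex that recharges eEF1A) and Eef2k fell. In even mice 5 of 13 fell (Eef1d, Eef1g, Eef1e1, Etf1 and Abce1) and Eef2k rose. Eef2k, the kinase that inhibits eEF2, had 44.7 ± 11.8 CPM at pH 6.9 against 105 ± 22.4 CPM at pH 7.4 in odd mice, and 82.1 ± 13.2 CPM against 37.95 ± 9.06 CPM in even mice. Eef1a1, which delivers aminoacyl-tRNA, had 0.63 ± 0.22 in odd mice (adjusted p = 0.0672) and −0.06 ± 0.19 in even mice on the log2 scale. For the difference between the sets, 6 of 13 passed with a higher change in odd than in even mice. The change of Eef2k was lower in odd mice (−2.35 ± 0.42, adjusted p = 0.000857). Over all genes, 5.07% were up and 6.01% down in odd mice, 2.67% up and 4.07% down in even mice, and 9.09% up and 8.96% down for the difference.

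Diphthamide is another amino acid that is made on a single elongation factor, a histidine of eEF2. Of the 7 genes for it, 0 passed in odd and 0 in even mice by edgeR, with 1 and 2 of them at an unadjusted p under 0.05. Dph5, a methyltransferase of that pathway, had −0.08 ± 0.26 in odd and −0.15 ± 0.23 in even mice. Dph3 had 0.90 ± 0.29 (adjusted p = 0.0527) and −0.53 ± 0.26 (adjusted p = 0.263), and it was the 1 of 7 that passed for the difference (1.43 ± 0.39, adjusted p = 0.0163), a share near the 18.1% of all genes. Tfeb and Atg3, for proteins whose synthesis is known to need hypusinated eIF5A, passed neither test, with Atg3 at 131 ± 14.3 CPM at pH 6.9 against 134 ± 3.22 CPM at pH 7.4 in odd mice and 129 ± 1.59 CPM against 156 ± 11.1 CPM in even mice.

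**Figure D5:**
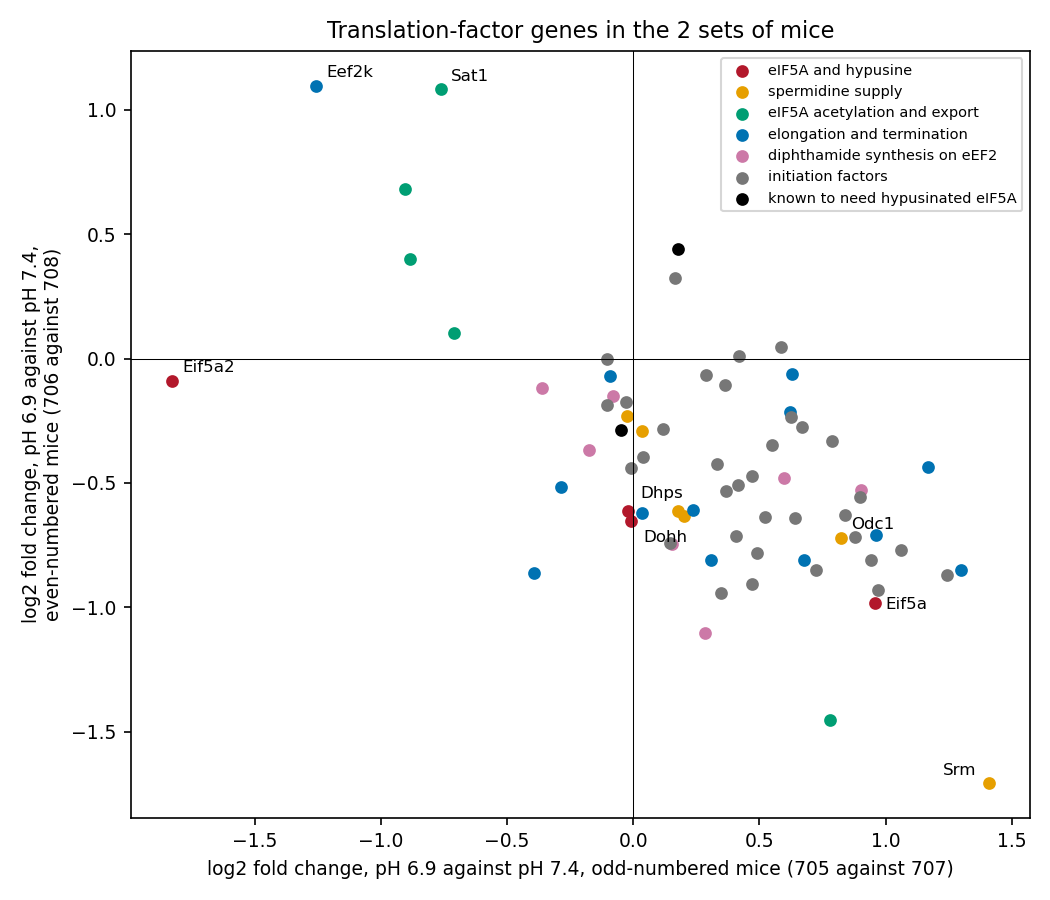
log2 fold change of pH 6.9 against pH 7.4 in odd mice (horizontal axis) and in even mice (vertical axis) for the members of 7 gene lists, 1 point a gene, coloured by list. Eif5a lies at 0.96 and −0.98 in the lower right with Srm, Odc1 and most initiation factors, Dhps and Dohh lie near 0 in odd mice and at −0.61 and −0.65 in even mice, and Eef2k and Sat1 lie in the upper left.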

How the data were processed

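Libraries were made with SMART-Seq v4 and Nextera XT, which keep no strand, and sequenced as paired ends of 75 bp, per the labels' protocols. The values are estimated counts per gene symbol, as deposited by the authors, who quantified reads with kallisto against mm10, per the submitters' processing notes. Versions and the step from transcripts to genes are not given in the sources used here. All values were whole numbers, and no 2 libraries were identical. Groups and mouse numbers came from sample titles.

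Genes kept by filterByExpr were tested with edgeR 4.0.16 (R 4.3.3), using TMM scaling and robust quasi-likelihood fits with Benjamini-Hochberg adjustment over all genes tested and a threshold of 0.05. One fit had a coefficient per group over 18 libraries (10104 genes), and the other had a coefficient per first index over 15 libraries (10659 genes), leaving out those under 1e+05 counts or 10000 genes detected. CPM are per 1e+06 TMM-scaled counts. Ratios used counts plus 0.5 and exact two-sided permutation tests.

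The design text names 6 mice, so mouse numbers pair libraries. In the check, same-numbered profiles correlated between −0.492 and 0.143 over 18 libraries and between −0.0909 and 0.162 over 15. The members, the lists and the fits by first index were chosen with earlier results of these data known. Those results had shown the split by first index, so the p-values by odd and even mice concern a split already seen. The text names the 3 members, the 5 genes likest to each by Pearson's r of log2 CPM (prior count 2) among genes of at least 10 CPM, and up to 4 members of each of 7 lists (71 genes), those with the highest mean and those past the threshold with the smallest p, besides members listed as past it.

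Alternatives were DESeq2 size factors, no filter, 5 CPM in 6 libraries, DESeq2 1.42.0, limma-voom of limma 3.58.1 with quality weights, the mouse as a block, the other choice of libraries, and each replicate left out of the comparisons that use it. Libraries lack molecular identifiers, so intervals and the limit set by 3 counts cover counting error only. Gene positions and transcript lengths came from GENCODE M21 on GRCm38, promoters from RefSeq, and similar transcripts from BLAST+ 2.17.0.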

Additional observations from a re-analysis of the deposited data

Results flagged for a closer look

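The change of Eif5a at pH 6.9 differed between odd-numbered and even-numbered mice. The difference of its log2 fold changes, odd minus even, was 1.94 against pH 7.4 (adjusted p = 3.52e-05) and 1.47 against fresh cells (adjusted p = 0.00176). For Eif5a2 the difference against fresh cells had the other sign, −2.99 (adjusted p = 0.0408).

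Among list genes named in the text, the same test of the difference against pH 7.4 passed for 15, where 18.1% of all genes passed. It was positive for Srm (3.12), Xpo4 (2.24), Eef1d (2.15), Eif3g (2.12), Eif4a1 (1.83), Eef1g (1.67), Eef1b2 (1.602), Eif1ax (1.58), Odc1 (1.54), Eef1e1 (1.48), Dph3 (1.43) and Etf1 (1.12). The 3 negative values were those of Eef2k (−2.35), Sat1 (−1.85) and Sirt2 (−1.28). Over all genes, 9.09% passed with a positive and 8.96% with a negative difference. Some of the list genes were named because they passed this test, so their number is not a result about the lists. The first index also differs between odd and even mice within each pH, and the 2 cannot be told apart.

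In fresh cells, the log2 ratio of Dohh to Eif5a was −5.665 in replicate 5, far from the other 3 fresh libraries kept. This was 1 of 29 groups of values examined, where chance marks about 1 in 20.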

How the results depend on the processing

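Under the alternatives that kept the 15 libraries, the Eif5a calls kept their direction and passed, apart from odd against even within pH 7.4, which with the mouse as a block was −0.794 (adjusted p = 0.128). Their adjusted p ranged up to 0.0172 in odd mice, 0.0035 in even mice and 0.000329 for the difference between the sets. With each of the libraries compared left out in turn, Eif5a ranged from 0.889 to 1.02 in odd mice, from −1.09 to −0.876 in even mice and from 1.83 to 2.05 for the difference. With all 18 libraries Eif5a no longer passed: 0.413 in odd mice, −0.969 in even mice, 1.38 for the difference, −0.549 for pH 6.9 against fresh in even mice, 0.682 for that difference between sets, 0.553 for odd against even within pH 6.9 and −0.829 within pH 7.4. Dhps and Dohh stayed uncalled in every alternative run. The enzymes rest on at most 446 counts a library.

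In the comparisons where the block can serve, it changed no call of the 3 genes. It moved the genes called to 775 in odd mice, 465 for odd against even within pH 6.9, 75 within pH 7.4, 0 within fresh, 20 for pH 6.9 against fresh in odd mice and 5 for pH 7.4 against fresh in even mice. Signs that turned were all on values that passed no test, and the cause was not tested. With the block they were Dhps 0.0538 and Dohh −0.00711 for pH 7.4 against fresh in even mice, and Dohh −0.0537 for odd against even within fresh. For pH 6.9 against pH 7.4 in odd mice, Dhps was 0.00422 with DESeq2 size factors, 0.00707 with DESeq2, 0.131 with limma-voom and 0.0518 with all 18 libraries. Dohh in that comparison was 0.017 with DESeq2 size factors, 0.00674 with no filter, 0.0198 with DESeq2 and 0.084 with limma-voom. The mean of both sets for Eif5a was 0.00785 with DESeq2 size factors, 0.00399 at 5 CPM in 6 libraries, 0.00774 with DESeq2 and 0.0199 with limma-voom. limma-voom also turned Dohh to −0.0478 for pH 7.4 against fresh, 0.0793 for pH 6.9 against fresh in odd mice and −0.0756 for odd against even within fresh. For pH 7.4 against fresh, 15 libraries gave Eif5a −0.253 and Dohh −0.0501, and with parity as a term −0.258 and −0.0458. All 18 libraries turned Eif5a to 0.42 and Dhps to 0.111 for pH 7.4 against fresh in even mice, and Dohh to −0.435 for pH 6.9 against fresh, odd minus even, and −0.0276 for odd against even within pH 6.9. They turned the ratio of Dhps to Eif5a to 0.458 for pH 6.9 against pH 7.4, −0.5001 for pH 7.4 against fresh and −0.0417 for pH 6.9 against fresh, that of Dohh to Eif5a to −0.0189 for the last, and that of Dohh to Dhps to 0.627 for pH 7.4 against fresh and 0.0229 for pH 6.9 against fresh.

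Counts of genes called moved more. DESeq2 called 4 for pH 6.9 against pH 7.4, 1097 in even mice and 251 for the mean of both sets. It called 173 and 135 for pH 7.4 against fresh in odd and even mice, 273 for pH 6.9 against fresh in odd mice, 783 for odd against even within pH 7.4 and 57 within fresh. In the same order from even mice on, limma-voom called 1725, 45, 7, 33, 21, 834 and 0, and no filter gave 430, 317, 369, 391, 792 and 161 from the mean of both sets on. All 18 libraries gave 65 in odd mice, 0 in even mice, 173 for the difference and 1 for the mean. They gave 1 and 0 for pH 7.4 against fresh, 1 and 82 for pH 6.9 against fresh in odd and even mice with 678 for the difference, and 152, 0 and 0 for odd against even within pH 6.9, pH 7.4 and fresh.

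With 1 replicate left out, genes called ranged from 464 (without pH 6.9 replicate 1) to 1365 in odd mice, 161 (without pH 7.4 replicate 6) to 491 in even mice, 1390 to 2017 for the difference, and 3 (without pH 6.9 replicate 2) to 145 (without pH 6.9 replicate 5) for the mean. They ranged from 752 (without pH 6.9 replicate 1) to 1368 within pH 6.9, 59 (without pH 7.4 replicate 6) to 290 within pH 7.4 and 2 to 7 within fresh, and for pH 6.9 against pH 7.4 by group from 0 to 1. For pH 7.4 against fresh they ranged from 1 to 24 in odd and 0 to 3 in even mice, and for pH 6.9 against fresh from 14 to 150 in odd and 422 (without fresh replicate 2) to 986 in even mice, with 480 (without fresh replicate 3) to 1317 for the difference. Where a set of 2 loses a library, the spread of the other sets stands in for that of the one left. Among values that turned sign, Eif5a ranged from −0.0677 to 0.0403 for the mean of both sets, −0.0972 to 0.288 for pH 7.4 against fresh and −0.438 to 0.0602 for pH 6.9 against fresh. Dhps ranged from −0.15 to 0.155 for pH 6.9 against pH 7.4 in odd mice, −0.0389 to 0.253 for pH 7.4 against fresh (−0.184 to 0.522 in odd and −0.439 to 0.373 in even mice) and −0.288 to 0.00384 for pH 6.9 against fresh (−0.206 to 0.499 in odd mice). Dhps for odd against even ranged from −0.304 to 0.00409 within pH 7.4 and −0.744 to 0.113 within fresh. Dohh ranged from −0.41 to 0.274 for pH 6.9 against pH 7.4 in odd mice, −0.0147 to 0.527 for pH 7.4 against fresh (−0.622 to 0.523 in odd mice), −0.631 to 0.513 for pH 6.9 against fresh in odd mice, −0.0292 to 1.11 for that change, odd minus even, and −0.634 to 0.512 for odd against even within fresh. The ratio of Dhps to Eif5a ranged from −0.0452 to 0.249 and that of Dohh to Eif5a from −0.0981 to 0.18 for pH 6.9 against fresh. That of Dohh to Dhps ranged from −0.158 to 0.0178 for pH 6.9 against pH 7.4, −0.253 to 0.0638 for pH 7.4 against fresh and −0.2996 to 0.0174 for pH 6.9 against fresh.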
